A study of Homo sapiens with 26 samples.

Results

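Immediate early genes are the subject of the measurements below, described across the perturbations of ZBTB24 and DNMT3B in HCT116 cells. The set holds 10 genes, namely FOS, FOSB, FOSL1, JUN, JUNB, EGR1, ATF3, IER2, IER3 and DUSP1, of 26281 gene symbols in the assembled annotation. Each was looked up by symbol in the 3 tables of expression differences and in the 2 merged peak lists. HCT116 is a human colorectal cancer cell line. RNA-seq compared clonal lines with stable FLAG-ZBTB24 (2 libraries, lines 5 and 11) with clonal lines carrying the tag alone (FLAG only, 2 libraries), cells with a hairpin against ZBTB24 (shZBTB24, 3 libraries) with cells carrying a non-targeting hairpin (shNT, 3 libraries), and a DNMT3B genetic knockout line (1 library) with wild-type HCT116 that carried neither tag nor hairpin (1 library). FLAG ChIP-seq was run on 3 FLAG-ZBTB24 lines, 2 FLAG-DNMT3B lines and 2 FLAG-only lines, each with its input. All tagged and hairpin lines, controls included, came from lentiviral infection and puromycin selection, and each FLAG line is a clone. A difference between clones therefore cannot be told apart from an effect of the tagged protein.

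Immediate early genes are transcribed within minutes of a growth factor, serum or stress signal, without new protein synthesis. Signals through the MAP kinases ERK, JNK and p38 act on factors already bound at their promoters, such as SRF with its ternary complex partners at CArG boxes and CREB or ATF proteins at cAMP response elements (CRE). Many of the products are themselves transcription factors: FOS and JUN family proteins pair through leucine zippers to form AP-1, which acts on later genes, while phosphatases such as DUSP1 shut the signal off. The messages are short-lived, so their levels follow the signalling state of the cells at harvest. The labels do not give the time between feeding and harvest.

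The expression tables give 1 pooled value per group in FPKM, a level scaled by transcript length and library size, so no error between libraries can be attached to any level, and the depth behind each value is unknown. They list loci past a size limit. The smallest listed absolute log2 fold change was 0.50 for FLAG-ZBTB24 and for shZBTB24 and 1.001 for the knockout, and the largest listed p-value for shZBTB24 was 0.0549. Absence from a list can mean no change, a filter or no test, which cannot be told apart. A locus is called changed at a q under 0.05 in the authors' deposited table. Of the perturbed genes, ZBTB24 was absent from the knockdown list, so its loss was not checked there, and DNMT3B from the rows of the knockout label. Under a second label of the knockout table, which matches no sample given here, DNMT3B stood at 6.46 FPKM, against 21.1 FPKM in wild type (q = 0.676) in the authors' deposited table. Whether rows of that label hold the falls of the same comparison is not stated. The locus shared by MICAL1 and ZBTB24 stood at 155 FPKM in FLAG-ZBTB24 and 17.8 FPKM in FLAG only (q = 0.0192) in the authors' deposited table. In bulk RNA, fewer cells of a type and less RNA per cell cannot be told apart. Of the epithelial markers EPCAM, CDH1, KRT8, KRT18, KRT19, CLDN4 and ELF3, only CDH1, at 23.2 FPKM in shZBTB24 and 46.3 FPKM in shNT (q = 0.00493), was called in any of the 3 comparisons of the authors' deposited tables. For FLAG-ZBTB24, ELF3 (27.8 FPKM with FLAG-ZBTB24 and 50.1 FPKM with FLAG only) and CDH1 (42.5 FPKM with FLAG-ZBTB24 and 29.2 FPKM with FLAG only) were listed and not called in the authors' deposited table. None was listed under the knockout label, while 5 of the 7 were listed under the second label, all below wild type and none called, with CDH1 at 6.10 FPKM under that label and 27.3 FPKM in wild type in the authors' deposited table. The part of these markers in the results below was not tested. Of 5 markers of leukocytes, endothelium and stroma, PDGFRB was listed, at 0.964 FPKM in the knockout and 0.0718 FPKM in wild type, and the others were not listed in any of the authors' deposited tables.

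In the FLAG-ZBTB24 lines, 7 of the 10 members were listed and all 7 had lower values than in the FLAG-only lines. The listed share of all reference symbols was 7.22%, a figure that includes genes these cells may not transcribe. Of the listed loci of the whole table, 52.7% had lower values. JUNB was called as a fall, 1 of 7 listed members, against 0.342% of listed loci called as falls. FOS and DUSP1 had a p under 0.05 as well as JUNB, 3 of 7 listed members, against 6.44% of listed loci lower at that p. The median log2 fold change of the 7 members was -1.09, beside -0.71 over all listed loci with lower values. ATF3, IER2 and IER3 were not listed for this comparison.

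JUNB encodes an AP-1 subunit that pairs with FOS proteins and often restrains JUN-driven growth. It stood at 28.3 FPKM in the FLAG-ZBTB24 lines and 89.8 FPKM in the FLAG-only lines in the authors' deposited table, a log2 fold change of -1.67 (p = 0.0002, q = 0.0498). The value was 3.18-fold lower in the FLAG-ZBTB24 lines. JUNB had the highest q of the 10 called loci, and the next q in the authors' deposited table, shared by 2 loci, was 0.0916. By size it ranked 69 from the lowest fold change, so most larger differences were not called. Only 6 loci were called as falls. Those other than JUNB were MT2A (log2 fold change -2.10), IFI27 (-2.39), MT1E (-2.65), HPGD (-3.22) and MT1X (-3.28) in the authors' deposited table, all with larger falls than JUNB. They encode 3 metallothioneins, an interferon-induced protein and a prostaglandin dehydrogenase.

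JUN, the AP-1 subunit phosphorylated by JNK, was lower in both ZBTB24 perturbations without being called in either. It stood at 7.41 FPKM in the FLAG-ZBTB24 lines and 13.7 FPKM in the FLAG-only lines in the authors' deposited table, a log2 fold change of -0.88 (q = 0.653). After knockdown it stood at 32.8 FPKM in shZBTB24 cells and 47.3 FPKM in shNT cells in the authors' deposited table, a log2 fold change of -0.53 (q = 0.242).

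The FOS family supplies the partners of the JUN proteins. FOS, its founding member, stood at 23.5 FPKM in the FLAG-ZBTB24 lines and 65.2 FPKM in the FLAG-only lines in the authors' deposited table, a log2 fold change of -1.47 (p = 0.01605, q = 0.429). It was thus close to JUNB in fold and far from it in q. FOSL1, also known as FRA1 and linked to invasive growth, had 36.3 FPKM in the FLAG-ZBTB24 lines and 54.4 FPKM in the FLAG-only lines in the authors' deposited table, a log2 fold change of -0.58 (q = 0.967). FOSB had 3.43 FPKM in the FLAG-ZBTB24 lines and 7.28 FPKM in the FLAG-only lines in the authors' deposited table, a log2 fold change of -1.09 (p = 0.5405). The FOSB row is assigned an interval of 138 kb on chromosome 19 (hg19), of which the annotated gene spans 5.21%. That interval also holds 6 other reference genes, ERCC1 and ERCC2 of nucleotide excision repair among them, and 0 of the 6 were listed.

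EGR1 and DUSP1, the listed members outside AP-1, also had lower values. EGR1, a zinc finger factor induced through SRF, had 43.9 FPKM in the FLAG-ZBTB24 lines and 66.3 FPKM in the FLAG-only lines in the authors' deposited table, a log2 fold change of -0.60 (q = 0.967). DUSP1, which dephosphorylates p38, JNK and ERK, had 5.09 FPKM in the FLAG-ZBTB24 lines and 10.95 FPKM in the FLAG-only lines in the authors' deposited table, a log2 fold change of -1.10 (p = 0.02745, q = 0.447). Among the 7 listed members the group values therefore differed by 1.50-fold (FOSL1) to 3.18-fold (JUNB).

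**Figure D1:**
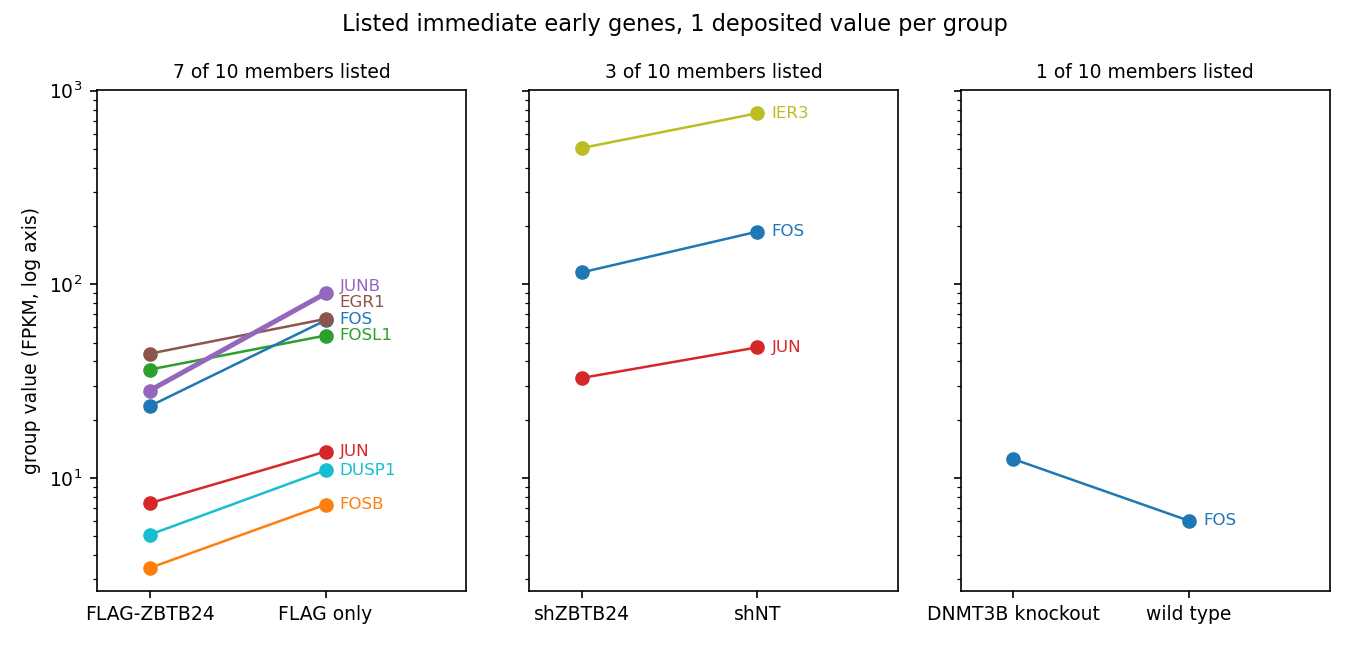
Group values in FPKM (log axis) of every listed member, with the perturbed group left of its control in each panel and 1 line per gene; the thick line marks JUNB, the called member. All 7 lines of the FLAG-ZBTB24 panel and all 3 of the shZBTB24 panel are lower at the perturbed group, while FOS is higher in the DNMT3B knockout than in wild type.

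After ZBTB24 knockdown, 3 of the 10 members were listed and all 3 had lower values in shZBTB24 cells, while 0 were called. The listed share of all reference symbols was 8.05%, 45.0% of listed loci had lower values, and 9.82% were called as falls. FOS stood at 115 FPKM in shZBTB24 cells and 187 FPKM in shNT cells in the authors' deposited table, a log2 fold change of -0.70 (p = 0.0081, q = 0.127). IER3, a stress-induced regulator of apoptosis that is also a target of NF-kB, stood at 506 FPKM in shZBTB24 cells and 765 FPKM in shNT cells in the authors' deposited table, a log2 fold change of -0.60 (q = 0.157). With JUN, these 3 members all had a p under 0.05, and 43.5% of listed loci were lower at such a p, since this list was limited by p. The median log2 fold change of the 3 was -0.60, beside -0.76 over all listed loci with lower values. JUNB, FOSB, FOSL1, EGR1, ATF3, IER2 and DUSP1 were not listed.

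FOS and JUN were the 2 members listed for both ZBTB24 perturbations, and in both they were lower where ZBTB24 was perturbed, although the hairpin targets ZBTB24 and the FLAG lines add it. Neither gene was called in either comparison. How many of all listed loci were lower in both comparisons was not counted, so the shared direction has no background share. These comparisons share no control library. ATF3, a stress-induced factor of the ATF family, and IER2, a nuclear protein of the early response, were listed in no table.

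**Figure D2:**
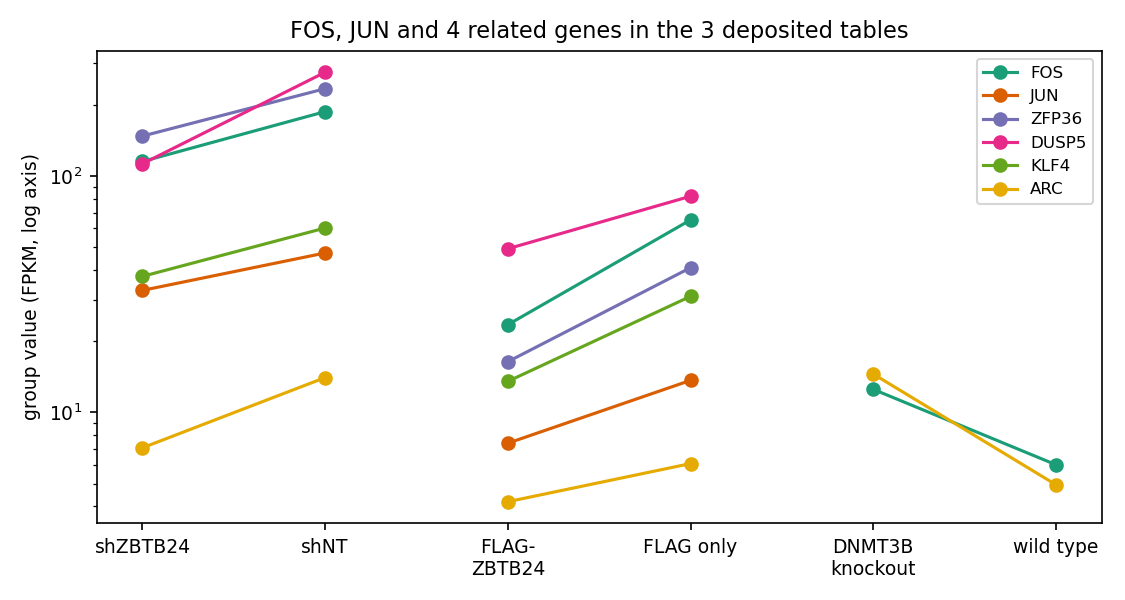
Group values in FPKM (log axis) of FOS, JUN and 4 immediate early and feedback genes listed for both ZBTB24 perturbations, with each perturbed group left of its control and lines within a table only; it is unknown whether the tables were normalized together. FOS stood at 187 FPKM in shNT, 65.2 FPKM in FLAG only and 6.01 FPKM in wild type, and all 6 genes lie lower in shZBTB24 and in FLAG-ZBTB24 than in the control beside them. How many of all listed loci do so was not counted.

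FOS was the 1 member listed for the DNMT3B knockout, where it was higher. It stood at 12.5 FPKM in the knockout library and 6.01 FPKM in the wild-type library in the authors' deposited table, a log2 fold change of 1.06 (q = 0.927). Of the loci listed there, 0.312% were called as rises, FOS not among them, and 9.09% of reference symbols were listed. All listed loci under the knockout label were higher, and all 1112 rows of the second label in that table were lower, so the direction is set by what was listed. With 1 library per group the difference has no replicate check. Of the other immediate early genes, 6 of 30 were listed there, none called, with the largest differences at the kinase gene SGK1 (8.95 FPKM in the knockout and 0.646 FPKM in wild type), NFKBIA, an inhibitor of NF-kB (162 FPKM in the knockout and 32.0 FPKM in wild type), CTGF (8.14 FPKM in the knockout and 2.18 FPKM in wild type) and ARC (14.5 FPKM in the knockout and 4.95 FPKM in wild type) in the authors' deposited table. The feedback genes DUSP10 and SPRY2 (log2 fold changes 3.58 and 1.64) and the AP-1 targets MMP13, MMP9, CXCL8 and SPP1 (8.78, 5.50, 3.68 and 1.04) were listed too, none called, in the authors' deposited table. MMP13 stood at 9.81 FPKM in the knockout and 0.0223 FPKM in wild type. MMP9 stood at 3.57 FPKM in the knockout and 0.0789 FPKM in wild type. Their fold changes thus rest on very low wild-type values. The wild-type values of DUSP10 (0.625 FPKM), SPP1 (0.606 FPKM) and SGK1 were below 1 FPKM too.

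The genes around this set were then described from 4 lists of 79 genes, chosen with earlier results of these data known. Of 30 other immediate early genes, 11 were listed for FLAG-ZBTB24, of which 9 had lower and 2 higher values, and 0 were called, against 0.570% of listed loci called in either direction. The deposited p was under 0.05 for 5 of the 11, all lower, against 6.44% of listed loci lower at such a p. The furthest were EGR2 (0.844 FPKM with FLAG-ZBTB24 and 2.19 FPKM with FLAG only), ZFP36, an mRNA decay factor (16.4 FPKM with FLAG-ZBTB24 and 40.9 FPKM with FLAG only), EGR3 (0.876 FPKM with FLAG-ZBTB24 and 2.12 FPKM with FLAG only) and KLF4, a Kruppel-like factor (13.5 FPKM with FLAG-ZBTB24 and 31.0 FPKM with FLAG only) in the authors' deposited table. The 2 with higher values were PHLDA1 and CTGF, a target of YAP and SRF signalling, at log2 fold changes of 0.52 and 0.90 in the authors' deposited table. The median log2 fold change of the 9 with lower values was -0.96, beside -0.71 over all listed loci with lower values.

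After knockdown 9 of these 30 genes were listed, 7 lower and 2 higher, and 1 was called, against 22.0% of listed loci called in either direction, so this count is no result about these genes. ARC, known from neurons as a synaptic plasticity gene, fell to 7.09 FPKM in shZBTB24 cells, against 14.04 FPKM in shNT cells in the authors' deposited table, a log2 fold change of -0.99 (q = 0.0206). KLF2 (log2 fold change -0.87, q = 0.0518), the nuclear receptor gene NR4A1 (-0.73) and NR4A3 (0.73) came next by size in the authors' deposited table. BTG2, an antiproliferative gene that p53 induces, was the other gene with a higher value, at 34.0 FPKM in shZBTB24 cells and 21.2 FPKM in shNT cells in the authors' deposited table. ARC, KLF4 and ZFP36 were listed with lower values in both ZBTB24 perturbations, again with no count over all listed loci. The median of the 7 with lower values was -0.68, beside -0.76 over all listed loci with lower values.

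Among feedback inhibitors and AP-1 targets, 1 locus of each list was called in the knockdown, of 1 and 6 listed, beside the 9.82% of listed loci called as falls. Of 13 MAP kinase feedback genes, DUSP5, a nuclear ERK phosphatase, was the 1 listed after knockdown and it fell, to 113 FPKM in shZBTB24 cells against 275 FPKM in shNT cells in the authors' deposited table, a log2 fold change of -1.29 (q = 0.00493). For FLAG-ZBTB24, DUSP5 (49.2 FPKM with FLAG-ZBTB24 and 82.1 FPKM with FLAG only, q = 0.680) and DUSP4 (36.2 FPKM with FLAG-ZBTB24 and 52.9 FPKM with FLAG only, q = 0.962) were listed, both lower, in the authors' deposited table. Of 15 reported AP-1 targets, 6 were listed after knockdown, 5 with lower values. MMP1, an interstitial collagenase, fell to 2.89 FPKM in shZBTB24 cells, against 13.2 FPKM in shNT cells in the authors' deposited table, a log2 fold change of -2.19 (q = 0.00493). In both ZBTB24 comparisons the MMP1 row is assigned an interval of 59.9 kb on chromosome 11 (hg19). Whether its values come from MMP1 alone is not known. The others with the furthest values were MMP10 (log2 fold change -2.17, q = 0.156), the EGF receptor ligand gene AREG (-0.96, q = 0.0518) and CXCL8 (-0.64, q = 0.310) in the authors' deposited table, and CCND1 was the 1 with a higher value. MMP10 was low in both groups, at 0.177 FPKM in shZBTB24 cells and 0.795 FPKM in shNT cells. All 5 AP-1 targets listed for FLAG-ZBTB24 had lower values, beside 52.7% of listed loci. Of the 5, 0 were called, against 0.570% of listed loci called in either direction. MMP1 was at 0.0340 FPKM in the FLAG-ZBTB24 lines and 6.13 FPKM in the FLAG-only lines in the authors' deposited table, a log2 fold change of -7.50 (q = 0.967), and CXCL8 was at 1.93 FPKM in the FLAG-ZBTB24 lines and 7.92 FPKM in the FLAG-only lines (q = 0.107). MMP10 (log2 fold change -3.32, q = 0.559) and PLAU, the urokinase gene (-0.66, q = 0.949), had lower values too, as did the locus of PLAUR, which it shares with CADM4, in the authors' deposited table. MMP10 was again low, at 0.0880 FPKM in the FLAG-ZBTB24 lines and 0.881 FPKM in the FLAG-only lines.

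Of 21 upstream signalling and promoter factors, 2 were listed after knockdown, 1 of them called, and 0 were listed for FLAG-ZBTB24. For the knockdown, 8.05% of reference symbols were listed and 22.0% of listed loci were called in either direction. The count of 1 of 2 is therefore no result about these factors. MAPK8, which encodes the kinase JNK1, fell to 12.6 FPKM in shZBTB24 cells, against 26.7 FPKM in shNT cells in the authors' deposited table, a log2 fold change of -1.08 (q = 0.0183). RPS6KA1, an ERK-activated kinase gene, had a log2 fold change of -0.53 (q = 0.229) in the authors' deposited table. SRF and CREB1 were not listed for either ZBTB24 perturbation.

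**Figure D3:**
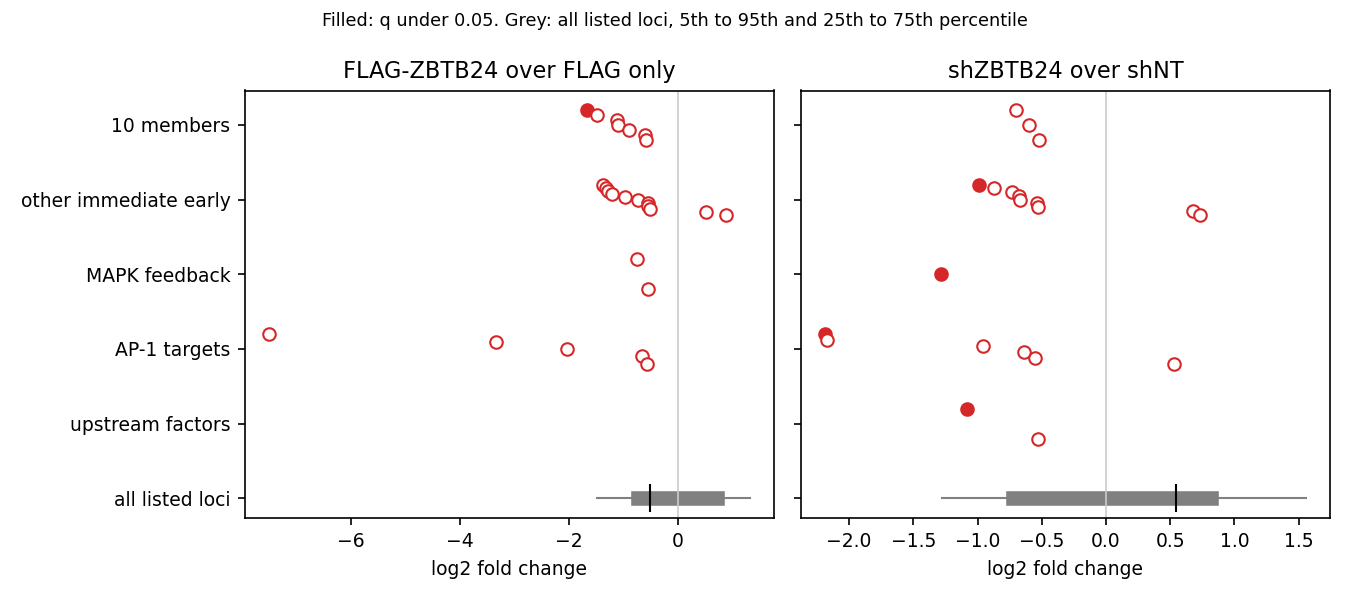
Log2 fold changes of all listed loci of each gene list, FLAG-ZBTB24 over FLAG only on the left and shZBTB24 over shNT on the right, with filled points for q under 0.05; the horizontal axes differ between panels, and the grey bars hold the middle 50% of all listed loci, none of which lie within 0.50 of 0. The members lie left of 0 in both panels, with JUNB filled on the left and ARC, DUSP5, MMP1 and MAPK8 filled on the right.

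Binding was asked next, at promoters and in gene bodies on hg19. A peak was counted at a promoter where its midpoint lay no more than 1000 bp from a start of the gene, and in the body where it lay inside a transcript farther from each start. No member held a FLAG-ZBTB24 peak at its promoter (0 of 10, against 3.74% of reference genes) or in its body (0 of 10, against 4.99%). No member held a FLAG-DNMT3B peak at its promoter (0 of 10, against 0.472%) or in its body (0 of 10, against 22.0%). The members are short: 9 of 10 span at most 10 kb, against 37.5% of reference genes, and their median span was 3.64 kb, against 17.7 kb. Among reference genes of at most 10 kb, 3.40% held a DNMT3B peak in the body. ATF3, at 55.4 kb and with 3 starts, was the 1 long member. At these background shares, 0 of 10 is not a result that sets the members apart.

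The nearest FLAG-ZBTB24 peak lay 28.7 kb to 369 kb from a member's start, with a median of 196 kb over the members and 138 kb over all reference genes. JUN had the closest, 28.7 kb downstream of its start (chromosome 1, 59221065 to 59221180, score 5.71), and no start of another reference gene was nearer to that peak. JUNB's nearest, 41.1 kb downstream (chromosome 19, 12943306 to 12943531, score 9.01), lay inside RTBDN, and it was also the nearest to IER2, which starts 359 kb from JUNB. FOSL1's nearest had the highest score among these, 17.5, and lay 163 bp from the start of MUS81 (chromosome 11, 65627589 to 65627829), a gene of DNA repair. FOS's nearest lay 290 bp from the start of ACYP1, 215 kb away. The median score of the whole ZBTB24 list was 8.26, and the scores are the authors' own.

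FLAG-DNMT3B peaks were 29.8 kb to 156 kb from the members' starts, with a median of 112 kb, against 70.7 kb over all reference genes. All 10 nearest peaks lay inside another gene: in MDC1 for IER3 (29.8 kb), in KDM3B for EGR1 (29.9 kb), in MAST1 for JUNB (63.1 kb), in MYSM1 for JUN (89.8 kb) and in ERCC2 for FOSB (106 kb). For FOS it lay inside JDP2 (155 kb), which encodes another AP-1 dimerization partner.

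**Figure D4:**
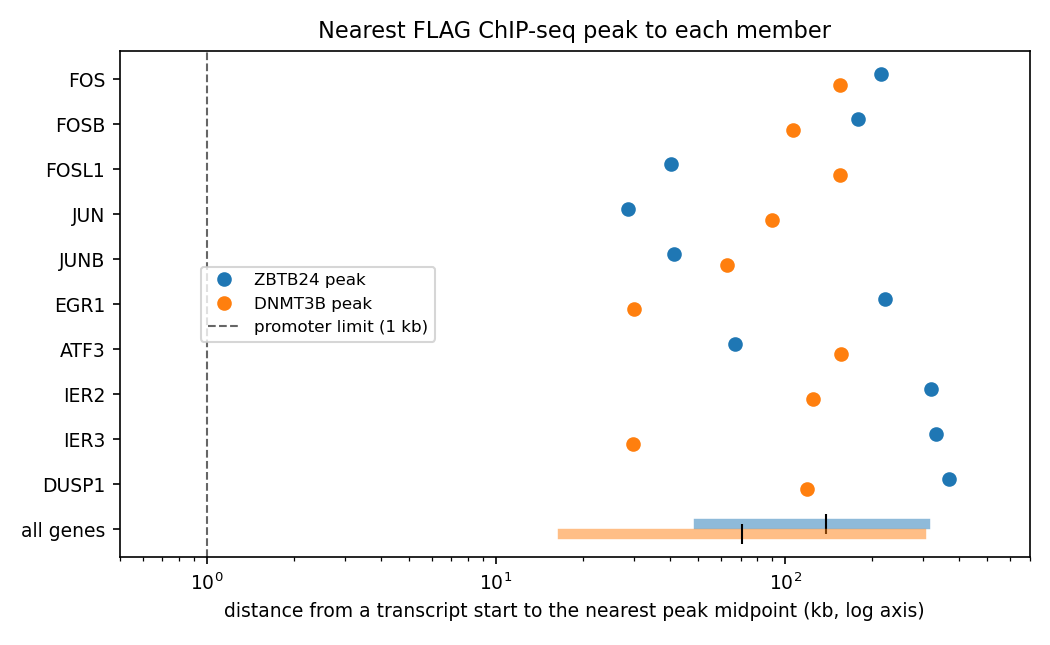
Distance in kb (log axis) from a member's transcript start to the nearest peak midpoint of FLAG-ZBTB24 (blue) and FLAG-DNMT3B (orange); the bars in the bottom row hold the middle 50% of all reference genes, with the median as a tick, and the dashed line marks the promoter limit. All 20 points lie right of the promoter limit, between 28.7 kb and 369 kb.

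At the other immediate early genes, peak counts were near the background shares. Of those 30, with a median span of 5.05 kb, 0 held a ZBTB24 promoter peak (against 3.74%), 2 held a ZBTB24 body peak (CSRNP1 and SGK1, against 4.99%) and 1 a DNMT3B body peak (NR4A2, against 22.0% of all genes and 3.40% of genes of at most 10 kb). Of the 21 upstream factors, 13 held a DNMT3B body peak, among them CREB1 and EGFR. These are long genes, with a median span of 80.6 kb and 19 of 21 over 10 kb. Of those 19, 13 held such a peak, against 33.0% of all reference genes over 10 kb. No share was taken over genes of like span, and the part of gene length was not tested. RPS6KA5, which encodes the chromatin kinase MSK1, held the 1 ZBTB24 promoter peak, at 0.712 kb from its start. Of the called context genes ARC, DUSP5, MMP1 and MAPK8, none held a peak of either factor at its promoter or in its body. At the background shares above, this does not set so few genes apart. The count used annotated genes, while the MMP1 row is assigned a wider interval. The ZBTB24 peak nearest to MMP1 lay 8.83 kb from its start.

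The promoters of the members listed together are shown because the letters upstream of their starts hold the response elements known for this gene class. RefSeq windows (build GRCh38.p14, matched by symbol and gene ID) were found for 8 of the 10 members, and the 250 bases before the start are printed for 5 of them, the called member JUNB and 4 others listed with it, 5′ to 3′ along the gene. Their GRCh38.p14 positions are chr19:12791236-12791485 on the plus strand for JUNB, chr14:75278578-75278827 on the plus strand for FOS, chr1:58784048-58784297 on the minus strand for JUN, chr5:172771196-172771445 on the minus strand for DUSP1, and chr5:138465229-138465478 on the plus strand for EGR1. Capitals mark matches to the CRE core TGACG on either strand, the palindromic CRE TGACGTCA, the CArG box on either strand and TATAAA on the gene's strand. A palindromic CRE holds 2 overlapping CRE cores.
JUNB: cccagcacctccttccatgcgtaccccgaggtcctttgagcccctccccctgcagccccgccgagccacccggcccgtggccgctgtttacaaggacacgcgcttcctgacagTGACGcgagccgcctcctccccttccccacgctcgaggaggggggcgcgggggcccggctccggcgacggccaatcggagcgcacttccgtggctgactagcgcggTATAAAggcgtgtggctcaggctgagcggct
FOS: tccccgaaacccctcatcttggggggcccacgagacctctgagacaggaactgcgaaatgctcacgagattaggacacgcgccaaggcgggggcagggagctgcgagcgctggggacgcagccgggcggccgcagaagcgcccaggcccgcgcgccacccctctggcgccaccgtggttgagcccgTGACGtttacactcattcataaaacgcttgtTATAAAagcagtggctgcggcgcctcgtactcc
JUN: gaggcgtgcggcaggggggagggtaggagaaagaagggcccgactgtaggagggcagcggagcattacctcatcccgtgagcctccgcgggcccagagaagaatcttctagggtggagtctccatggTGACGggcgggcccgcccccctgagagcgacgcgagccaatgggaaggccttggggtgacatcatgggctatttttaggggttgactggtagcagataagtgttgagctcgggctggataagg
DUSP1: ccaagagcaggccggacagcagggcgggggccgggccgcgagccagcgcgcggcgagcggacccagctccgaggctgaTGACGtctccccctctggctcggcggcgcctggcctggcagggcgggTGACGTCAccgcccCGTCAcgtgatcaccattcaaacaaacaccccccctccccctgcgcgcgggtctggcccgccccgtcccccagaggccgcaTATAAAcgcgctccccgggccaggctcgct
EGR1: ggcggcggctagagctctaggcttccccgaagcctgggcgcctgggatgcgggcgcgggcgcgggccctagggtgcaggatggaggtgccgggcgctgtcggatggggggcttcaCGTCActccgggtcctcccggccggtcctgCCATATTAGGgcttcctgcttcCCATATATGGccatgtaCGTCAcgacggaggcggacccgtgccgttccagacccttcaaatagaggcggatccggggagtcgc

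A CRE core was found in 7 of the 8 members with a window, all but ATF3, against 21.2% of 35116 RefSeq windows. Among windows of genes with a ZBTB24 promoter peak the share was 29.1%. The core TGACG holds a CG, and no share was taken over windows of like GC content. In FOS the CRE core lies 64 to 60 bp before the start, where the CRE of this gene is known, and in FOSB at 60 to 56 bp. DUSP1 held 4 cores, 2 of them within the palindromic CRE at 125 to 118 bp, which 1.65% of all windows hold. EGR1 held 2 CArG boxes, at 105 to 96 and 83 to 74 bp, a motif found in 1.16% of all windows. The serum response element of FOS is known to lie farther upstream than these windows reach. TATAAA was found in FOS, FOSB, JUNB, DUSP1 and 1 of 2 ATF3 windows, against 6.80% of all windows, and in the first 4 it began 33 to 30 bp before the start. The AP-1 site TGACTCA, on either strand, was found in 0 of the 8, against 4.20%. Only exact matches were searched, so variant sites, such as TGACATCA in the printed JUN window, were neither marked nor counted. AGGTCCTGG, the core of the site reported for the zinc fingers of ZBTB24, was found on either strand in 0 of the 8, against 0.487% of all windows and 1.75% of windows of genes with a ZBTB24 promoter peak. GC content was 62.0% to 74.4% in the windows of the 7 members other than ATF3 (44.8% and 49.2%), against a median of 58.0%. The called member JUNB shares its combination, a CRE core, TATAAA near the start and no CArG box, with FOS, FOSB and DUSP1, while JUN and EGR1 have no TATAAA here.

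**Figure D5:**
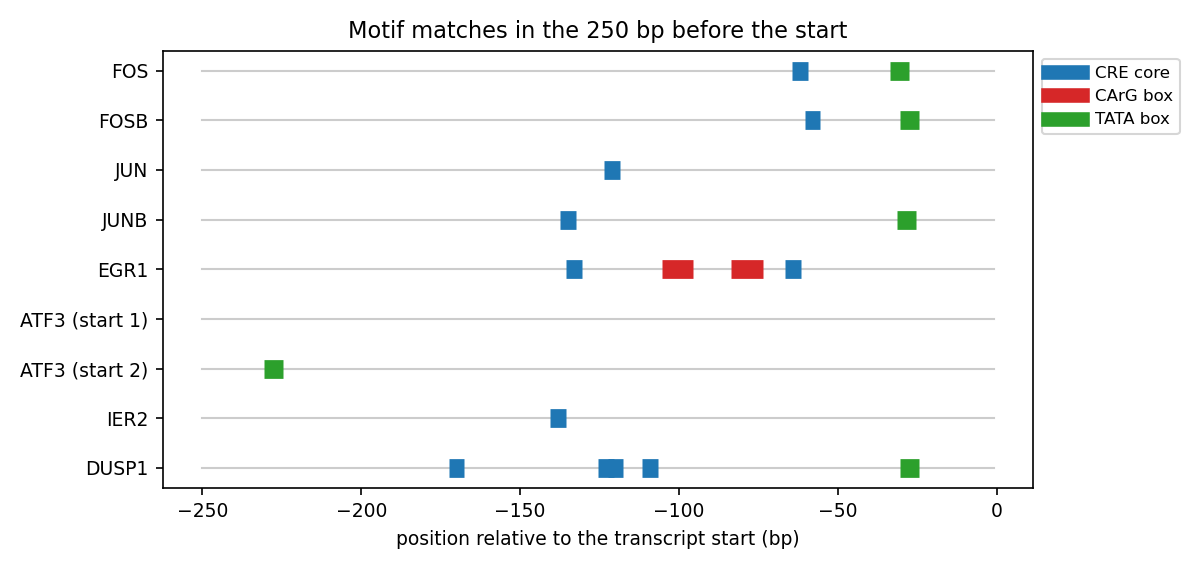
Positions of CRE cores, CArG boxes and TATAAA (coloured blocks) in the 250 bp before the start of 8 members, ATF3 with 2 starts; the horizontal axis is the distance from the start in bp. CRE cores appear in 7 members, CArG boxes in EGR1 alone, and TATAAA near the start of FOS, FOSB, JUNB and DUSP1.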

How the data were processed

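RNA-seq and FLAG ChIP-seq libraries of HCT116 lines were used, 26 in all, of which 12 were RNA-seq. Reads were processed with HISAT2, StringTie, Cufflinks and MACS2 on hg19, per the submitters' processing notes, with no version number (not given in the sources used here) for any tool. Deposited tables hold 1 FPKM value per group, a log2 fold change, a score-like test statistic, and p-values and q-values from the authors' own comparison. Each merged peak list carries a deposited score whose kind is not stated. It is unknown whether the tables were normalized together. A stranded kit was used, per the labels' protocols. The labels do not say whether the hairpin replicates were separate cultures, and p-values of the knockdown may then measure technical spread. The FLAG-ZBTB24 libraries came from different clonal lines, so their spread includes that between clones.

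From these files, genes were matched by symbol at each listed locus, split on commas. Peak midpoints were set against transcript starts of the deposited annotation on whole chromosomes. No test was run, since no table gives values per library. All 10 members are named, with the called genes and up to 4 largest changes of each context list; BTG2, PHLDA1, CCND1 and the context genes named for peaks were chosen after their values were seen. Members and lists were chosen with earlier results of these data known. Of the DNMT3BKO table, 1112 rows whose second label matches no sample given here were kept out of the knockout comparison and described apart. Their wild-type values were used where control levels are compared. Placement of peaks and motifs was tested on simulated data. Python 3.11.15, pandas 2.3.3, NumPy 2.4.6 and matplotlib 3.10.9 were used. Alternatives covered the threshold, low values, shared loci, pseudocounts, windows, peak scores and overlap.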

Additional observations from a re-analysis of the deposited data

How the results depend on the processing

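At an unadjusted p under 0.05 in place of q, 3 members passed for FLAG-ZBTB24 and 3 for shZBTB24. Of the other immediate early genes, 5 passed for FLAG-ZBTB24 and 9 for shZBTB24. The counts at q under 0.05 were 1, 0, 0 and 1 in that order. Of all listed loci, 113 lower and 61 higher of 1754 passed at that p for FLAG-ZBTB24. For shZBTB24, 855 lower and 1052 higher of 1965 passed. The shZBTB24 list was limited by p, so its counts at p were set by the list. The counts called by q did not move for the knockout with rows of both labels. Keeping only loci that name 1 gene, or with at least 1 FPKM in either group, can only remove loci. The called JUNB and ARC pass both limits, so these settings could not change the counts. No member held a peak within 2000 bp, with any overlap of 1 bp, or with all transcripts of the assembled locus, the last chosen after seeing the data; a window of 500 bp and peaks at or above the median score give 0 by construction. With a pseudocount of 0.1 or 1, which by construction turns no sign, the largest moves of the 11 fold changes of members on the log2 scale were 0.0218 and 0.184. No paired analysis was possible because each table holds 1 pooled value per group, and leaving out single libraries was not run for the same reason. JUNB's call rests on a q of 0.0498 with 2 libraries per group.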

Other observations

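The control groups of the 3 tables differed in the levels of these genes. FOS stood at 187 FPKM in shNT, 65.2 FPKM in FLAG only and 6.01 FPKM in wild type in the authors' deposited tables, which makes shNT 31.1-fold and FLAG only 10.8-fold higher than wild type. JUN was 3.46-fold higher in shNT (47.3 FPKM) than in FLAG only (13.7 FPKM). Among all loci that name 1 gene, are listed in both tables and have at least 1 FPKM in both controls, the median log2 ratio of shNT over FLAG only was -0.0041 over 275 loci, with the middle 50% between -0.78 and 0.89. FOS and JUN lay at percentiles 88.7 and 92.0 of those ratios, and ZFP36, with 234 FPKM in shNT and 40.9 FPKM in FLAG only, at percentile 97.8. All 8 genes of the members and context lists listed in both tables at such levels were higher in shNT, with CXCL8 nearly level at 1.01-fold. Against wild type, FOS lay at percentile 99.5 of 387 loci for shNT and 98.8 of 331 loci for FLAG only. Those loci include rows of both labels of the knockout table, 1 listed as rises and the other as falls. FOS was listed as a rise, which favours a low wild-type value. The listing thus pushes FOS up in these ratios, and the percentiles cannot separate that from a difference between controls. Of the other immediate early genes, 3 of 4 were higher in shNT than in wild type and 2 of 5 in FLAG only than in wild type, with ratios down to 0.904 for PPP1R15A and 0.431 for ZFP36. In these counts the wild-type values of BTG2, EGR3 and ZFP36 come from rows of the second label. ZFP36 was 2.46-fold higher in shNT than in wild type (94.97 FPKM, from a row of the second label of the knockout table), while in FLAG only it was lower than in wild type. These are single group values from tables not known to share 1 normalization, and the differences between controls were not tested.

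For FOS the difference between shNT and FLAG only, 2.87-fold, was larger than those within both tables. FOS differed by 2.78-fold between the FLAG-ZBTB24 and FLAG-only lines and by 1.62-fold between shZBTB24 and shNT cells. The value of FOS in shZBTB24 cells, 115 FPKM, was above the 65.2 FPKM of the FLAG-only lines. For CXCL8 the order was the other way, with 1.01-fold between shNT and FLAG only and 4.10-fold between the FLAG-ZBTB24 and FLAG-only lines.

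Rows of the knockout table labelled DNMT3BKOshZB, a name that fits none of the samples here, held 0 members. They listed 5 of the 30 other immediate early genes, all with lower values than wild type and none called, among them TRIB1 at 26.2 FPKM under that label and 146 FPKM in wild type (q = 0.106) and MYC at 96.6 FPKM under that label and 254 FPKM in wild type (q = 0.483) in the authors' deposited table.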
